A study of Mus musculus with 16 samples.

Results

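The effect of a fast food meal on mouse liver transcripts was compared between 2 kinds of drinking water. For each gene the quantity examined was the meal-by-water difference, the log2 ratio of fast food to chow in antibiotic water minus the same ratio in control water. All 16 of 16 libraries entered it, and 13180 of the 25006 genes in the count table had enough counts to be tested. A positive difference means that fast food moved the transcript further upward, or less far downward, in antibiotic water than in control water.

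The livers came from C57BL/6 mice, an inbred laboratory strain, and were collected 4 h after 1 gavage. The 4 groups of 4 libraries were fast food slurry with antibiotic drinking water (fast food antibiotic), chow slurry with antibiotic drinking water (chow antibiotic), fast food slurry with control drinking water (fast food control) and chow slurry with control drinking water (chow control). Information on the antibiotics, their dose and duration, the slurries, and the age and sex of the mice was not given in the sources used here. As the series title puts it, the interest lies in responses to a single fast food meal that depend on gut microbes, which is the question of this contrast. Levels below are counts scaled to library size with TMM factors (CPM), listed for replicates 1 to 4 of each group, and differences are on the log2 scale with their standard error.

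After a meal the liver receives absorbed nutrients and bacterial metabolites through the portal vein. Antibiotics in drinking water are widely used to lower the number of gut bacteria, which otherwise modify bile acids, choline and many other compounds before they reach the liver. PPAR-alpha, a receptor for fatty acids, turns on the genes of fatty acid oxidation and ketone body production during fasting, and is less active as insulin rises after a meal.

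Each library held 8954378 to 18954655 counts. Reads resembling ribosomal RNA fell on 4 features (Lars2, Mir6236, Gm20594 and Mir6240), whose share was 0.587% to 8.23% in fast food antibiotic, 0.243% to 7.69% in chow antibiotic, 0.162% to 0.338% in fast food control and 0.12% to 8.42% in chow control libraries. It exceeded 1% in 3, 2, 0 and 2 libraries of these groups. Transcripts of acute phase proteins, which the liver secretes during inflammation, were highest in fast food antibiotic replicate 2, chow antibiotic replicate 4 and chow control replicate 2. On the first principal component, which held 38.8% of the variance, fast food antibiotic replicate 2 lay at 45.4 among the chow antibiotic libraries (36.5 to 74.1), while the other fast food antibiotic libraries lay at -16.1 to -10 and the control-water libraries at -33.4 to -2.44. The part of these features in the results was not tested, and counts without the libraries concerned are given beside them. As a check of the liver label, the 7 hepatocyte markers were abundant, with a summed level of 84700 to 144000 CPM in fast food antibiotic, 155000 to 214000 in chow antibiotic, 96800 to 107000 in fast food control and 92600 to 124000 in chow control libraries. The 8 exocrine pancreas markers summed to 16.8 to 24.8 CPM in chow antibiotic libraries. Their sum was 4.57 to 16.7 in fast food antibiotic, 5.38 to 7.75 in fast food control and 4.94 to 8.78 in chow control libraries. The 6 adipocyte markers summed to at most 1.68 CPM, in a fast food control library. Of the pancreas and adipocyte markers, Amy2a5, Lep and Retn were at 0 in every library. The part of the higher pancreas sum in chow antibiotic livers was not tested.

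The meal-by-water difference was called, at an adjusted p under 0.05 in edgeR's quasi-likelihood test, for 519 of 13180 genes, which is 3.94%. It was positive for 311 genes (2.36%) and negative for 208 genes (1.58%), and 297 of them differed at least 2-fold. The meal itself changed 1800 genes (13.7%) in antibiotic water and 76 genes (0.577%) in control water. The median difference over all tested genes was 0.06, and 2785 genes had an unadjusted p under 0.05. The count of 519 depended on single libraries. It was 1494 without fast food antibiotic replicate 2, and all 519 genes were among them. Among the other fast food antibiotic libraries, replicates 1, 3 and 4 left 328, 307 and 164 calls when dropped, and chow antibiotic replicates 1, 2 and 3 left 327, 264 and 324. It was 224, 219 and 187 without fast food control replicates 1, 2 and 3, and 174 and 290 without chow control replicates 1 and 2. Leaving out any other library moved it by less than 1.5-fold. The count of 1800 for the meal in antibiotic water became 1086, 3042, 842 and 697 when replicates 1 to 4 of fast food antibiotic were dropped, and 965 when chow antibiotic replicate 2 was. The count of 76 for control water was 11 to 42 without any 1 of the 8 control-water libraries, 44 without chow antibiotic replicate 1 and 155 when fast food antibiotic replicate 2 was dropped. Without the 3 libraries highest in acute phase transcripts 1851 genes were called, 915 positive and 936 negative, and 501 of the 519 were among them. With the share of ribosomal RNA-like (rRNA-like) counts as a covariate 183 were called.

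The 2 meal effects that make up the difference were set side by side for the called genes. They share no libraries, but the choice of genes by their difference favours opposite signs, so these counts are descriptions. The meal effects had opposite signs in 478 of the 519 genes, or 92.1%, against 47.9% of all tested genes. For 253 genes the meal raised the level in antibiotic water and made no call in control water, and for 157 it lowered the level in antibiotic water and made no call in control water. Only the meal effect in control water was called for 11 genes with a positive and 14 with a negative difference, and neither for 42 positive and 34 negative ones. In 350 genes, or 67.4%, the chow antibiotic mean lay farthest from the other 3 groups, against 42.4% of all tested genes. The fast food antibiotic mean lay farthest in 13.5% against 23.1%, the fast food control mean in 3.66% against 17.5%, and the chow control mean in 15.4% against 16.9%. The antibiotic and control groups lay closer together after fast food than after chow for 430 genes (82.9%, against 59.4% of all). The median size of their log2 difference was 0.305 after fast food and 0.892 after chow in the called genes, and 0.244 and 0.313 over all genes.

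**Figure D1:**
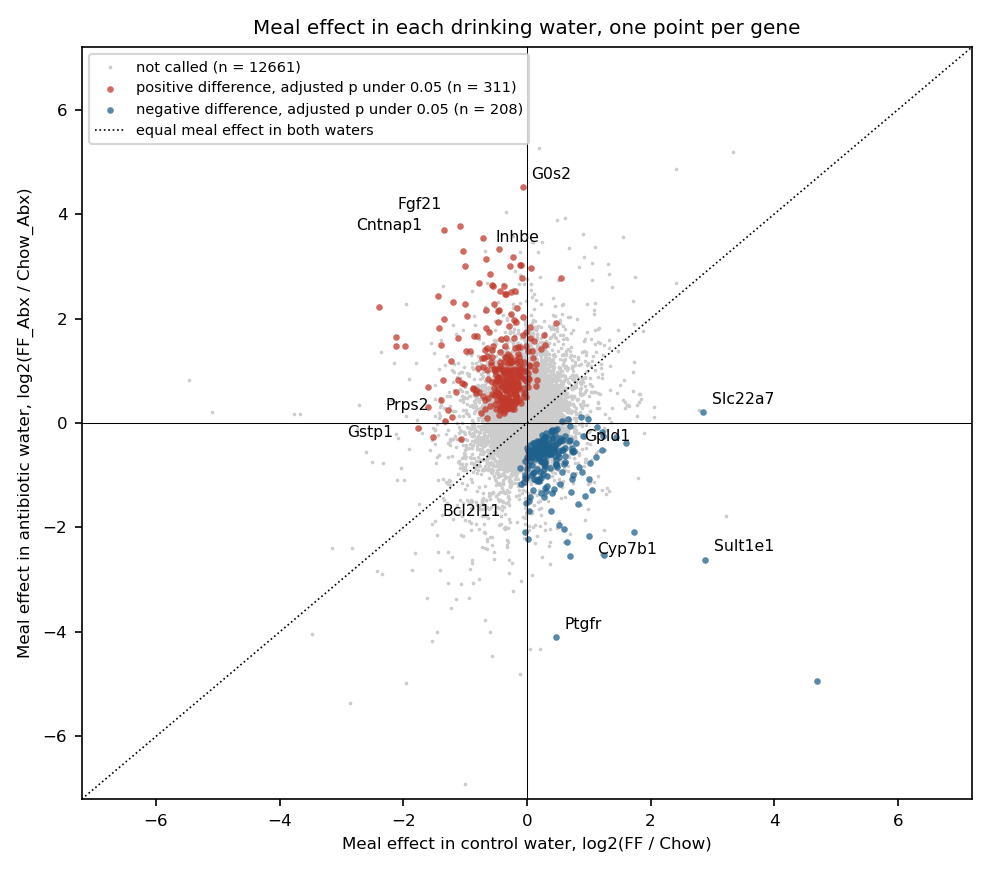
Log2 meal effect in antibiotic water (vertical axis) against that in control water (horizontal axis), one point per tested gene. Red points are the 311 genes with a positive meal-by-water difference and blue points the 208 with a negative one, and most lie in the quadrants where the 2 effects have opposite signs.

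Moxd1, the isolated blue point at the lower right, was singled out after its values were seen and is too low in level for the rule on named genes. It averaged 0.133 CPM in fast food antibiotic and 4.07 CPM in chow antibiotic livers, against 0.625 CPM in fast food control and 0.0268 CPM in chow control livers. Its SD of 3.80 CPM in chow antibiotic livers was nearly as large as its mean there.

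Among genes that met the rule on named genes, the lowest p-values belonged to Bcl2l11, Nfe2l1 and Cyp7b1, each with an adjusted p of 0.00199. Bcl2l11 (chromosome 2, 128126038 to 128162547, plus strand) encodes BIM, a protein that triggers apoptosis at the mitochondrion. Bcl2l11 had 14.2, 13.6, 17.6 and 16.7 CPM in fast food antibiotic livers, against 33.8, 42.8, 49.5 and 55 CPM in chow antibiotic livers, with no overlap. With control water, Bcl2l11 had 10.8, 11.3, 10.8 and 10.5 CPM in fast food control livers, against 10.7, 11.9, 11.5 and 9.83 CPM in chow control livers, and those ranges overlapped. The chow antibiotic livers stood alone, at more than any of the other 12 libraries. The meal effect was -1.54 in antibiotic and -0.02 in control water, a difference of -1.52 ± 0.19.

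Nfe2l1 (chromosome 11, 96817414 to 96829968, minus strand) encodes NRF1, the transcription factor that raises proteasome subunit genes when proteasome capacity falls short. Nfe2l1 had 111, 83.4, 102 and 93 CPM in fast food antibiotic livers, against 52.9, 54.1, 52.2 and 48.3 CPM in chow antibiotic livers, and 83.3, 91, 88 and 93.2 CPM in fast food control livers, against 107, 99.8, 97.6 and 90.0 CPM in chow control livers. All 4 chow antibiotic livers lay below the other 12, and the difference was 1.06 ± 0.14. Among the 32 tested genes of the proteasome list, which holds Nfe2l1 itself, it was the only one called by edgeR. DESeq2 gave 1 positive and 2 negative calls in that list. The median difference of that list was -0.19, and 8 of its genes had an unadjusted p under 0.05, beside 2785 of all 13180 genes.

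The promoters of both genes are printed because they had the lowest p among the named genes matched to one. They run from 250 bases before to 50 bases after the start annotated in RefSeq (GRCm38.p6), 5′ to 3′ on the gene's strand, chr2:128125788-128126087 on the plus strand and chr11:96829919-96830218 on the minus strand. Neither window held any of 5 motifs searched on both strands: the DR1 that PPAR-alpha binds, the CRE TGACGTCA, the C/EBP-ATF element TGATGNAAT, the E-box CACGTG, and 3 inverted units of the heat shock element.
Bcl2l11: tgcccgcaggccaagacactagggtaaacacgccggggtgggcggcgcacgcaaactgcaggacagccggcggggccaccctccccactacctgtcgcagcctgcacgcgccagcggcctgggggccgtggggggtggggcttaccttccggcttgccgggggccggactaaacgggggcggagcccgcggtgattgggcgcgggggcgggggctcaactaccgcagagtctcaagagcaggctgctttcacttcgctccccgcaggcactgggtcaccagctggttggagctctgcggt
Nfe2l1: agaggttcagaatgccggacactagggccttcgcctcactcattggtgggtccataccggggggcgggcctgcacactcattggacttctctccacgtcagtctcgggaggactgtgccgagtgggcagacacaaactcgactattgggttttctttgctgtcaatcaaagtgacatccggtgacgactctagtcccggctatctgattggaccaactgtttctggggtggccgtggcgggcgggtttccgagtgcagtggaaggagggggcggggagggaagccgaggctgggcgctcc

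In 8 genes the meal effect was called in both waters and in opposite directions. In 7 of them both chow means lay at the extremes and the 2 fast food means between them, and in Rims2 the fast food control mean (0.372 CPM) lay just under the chow antibiotic mean (0.378 CPM). Gpld1, the phospholipase that releases GPI-anchored proteins and circulates in plasma, had 336, 457, 389 and 297 CPM in fast food antibiotic livers, against 566, 521, 550.1 and 508 CPM in chow antibiotic livers. With control water, Gpld1 had 368, 368, 347 and 356 CPM in fast food control livers, against 189, 205, 214 and 246 CPM in chow control livers. The meal groups did not overlap in either water, and the meal effect was -0.54 in antibiotic and 0.75 in control water, a difference of -1.29 ± 0.18 (adjusted p = 0.00283). Of its annotated exon bases 45.5% are shared with Mrs2, for which the difference was 0.12 (adjusted p = 0.855), and whether strand was used in counting was not given in the sources used here.

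Asgr2, a subunit of the asialoglycoprotein receptor that clears plasma glycoproteins, and Amy1, salivary-type amylase that the mouse liver also makes, had the same order of groups. Asgr2 had 118, 156, 152 and 127 CPM in fast food antibiotic livers, against 192, 166, 182 and 186 CPM in chow antibiotic livers, and 146, 142, 142 and 144 CPM in fast food control livers, against 90.2, 91.2, 108 and 115 CPM in chow control livers. Its difference was -0.89 ± 0.16 (adjusted p = 0.00716). Amy1 had 333, 429.7, 416 and 286 CPM in fast food antibiotic livers, against 539.7, 564, 538 and 516 CPM in chow antibiotic livers, and 442, 358, 383 and 325 CPM in fast food control livers, against 180.2, 241, 228 and 251 CPM in chow control livers. For Amy1 the difference was -1.30 ± 0.20 (adjusted p = 0.00445), with 32.7% of its exon bases shared with Rnpc3 and near-identical amylase copies elsewhere, so its counts are uncertain. In Gpld1, Asgr2 and Amy1 alike, chow antibiotic livers were highest and chow control livers lowest, without overlap with the fast food groups of the same water.

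Cul7 and Nt5dc2 had the reverse order, with chow control highest and chow antibiotic lowest. Cul7, a scaffold of ubiquitin ligases, had 9.25, 7.04, 7.12 and 10.5 CPM in fast food antibiotic livers, against 5.89, 5.87, 3.67 and 5.82 CPM in chow antibiotic livers, and 5.94, 5.66, 4.84 and 6.04 CPM in fast food control livers, against 9.98, 10.8, 9.86 and 10.7 CPM in chow control livers. The difference of Cul7 was 1.55 ± 0.24 (adjusted p = 0.00445). Nt5dc2, a predicted nucleotidase, had 5.17, 2.37, 2.94 and 5.19 CPM in fast food antibiotic livers, against 2.33, 1.66, 2.29 and 2.41 CPM in chow antibiotic livers, ranges that overlapped. It had 5.19, 3.45, 3.72 and 3.35 CPM in fast food control livers, against 10.6, 8.1, 8.58 and 7.06 CPM in chow control livers, without overlap, and a difference of 1.94 ± 0.35 (adjusted p = 0.00924).

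Atp2b2, a plasma membrane calcium pump, and Rims2, a protein of vesicle release, were also among the 8 but had a mean below 2 CPM. Their differences were 3.60 ± 0.57 (adjusted p = 0.00451) and 3.46 ± 0.53 (adjusted p = 0.00445). Atp2b2 had 1.59, 1.22, 0.98 and 2.83 CPM in fast food antibiotic livers, against 0.833, 0.613, 0.287 and 0.568 CPM in chow antibiotic livers, and 0.909, 0.689, 0.408 and 1.22 CPM in fast food control livers, against 3.97, 3.37, 4.36 and 2.46 CPM in chow control livers. Rims2 had 0.796, 1.0, 0.619 and 1.6 CPM in fast food antibiotic livers, against 0.278, 0.438, 0.229 and 0.568 CPM in chow antibiotic livers, and 0.428, 0.295, 0.357 and 0.406 CPM in fast food control livers, against 1.82, 1.1, 1.29 and 1.78 CPM in chow control livers. The meal groups of Atp2b2 and Rims2 did not overlap in either water.

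**Figure D2:**
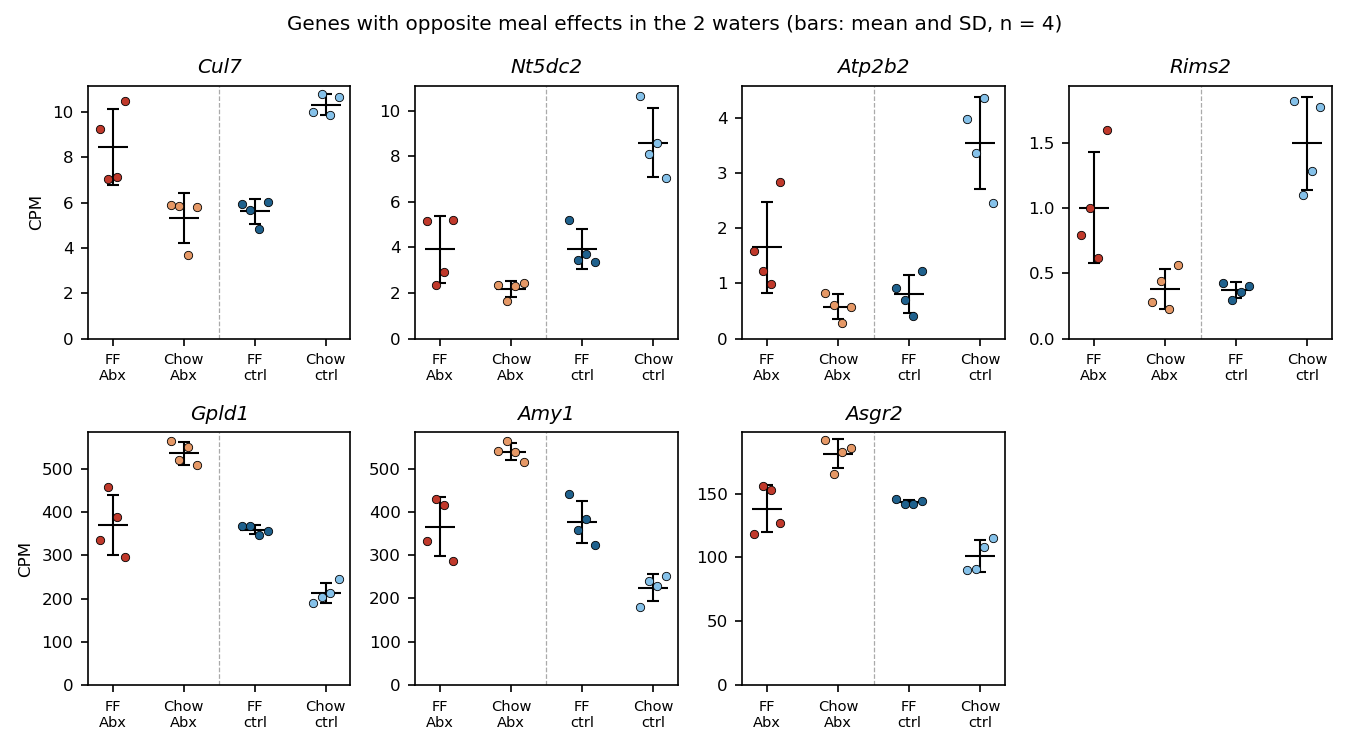
CPM of 7 of the 8 genes whose meal effect was called in both waters with opposite signs, one point per library, with the mean and SD of 4 libraries as bars. In each panel the groups run fast food antibiotic, chow antibiotic, fast food control and chow control, and the chow means lie above and below both fast food means except in Rims2, where 2 group means nearly coincide.

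Pgm3 and Prps2, enzymes of sugar-nucleotide and nucleotide synthesis, were among the 8 genes of lowest p that met the rule on named genes. Pgm3, an enzyme of UDP-N-acetylglucosamine synthesis, had 44.3, 28.4, 34.9 and 54.9 CPM in fast food antibiotic livers, against 15.6, 21.5, 17.1 and 23.4 CPM in chow antibiotic livers. With control water, Pgm3 had 36.6, 28.6, 33.7 and 26.8 CPM in fast food control livers, against 48.1, 48.8, 51.4 and 56.8 CPM in chow control livers. The ranges overlapped in neither water, and the difference was 1.78 ± 0.25 (adjusted p = 0.00348), with 28.3% of exon bases shared with Dop1a, for which it was -0.01 (adjusted p = 0.989). Prps2, which makes the ribose donor of nucleotide synthesis, had 6.37, 9.55, 10.2 and 9.53 CPM in fast food antibiotic livers, against 8.05, 6.39, 7.97 and 7.81 CPM in chow antibiotic livers, which overlapped. With control water, Prps2 had 5.94, 8.02, 6.42 and 6.35 CPM in fast food control livers, against 18.2, 15.5, 17.3 and 14.2 CPM in chow control livers, so that chow control livers stood above the other 12. Its difference was 1.53 ± 0.22 (adjusted p = 0.00348).

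Genes of fatty acid use had positive differences where edgeR called them. Of 26 tested PPAR-alpha targets of fatty acid oxidation, 4 were called, all positive (Cpt2, Acaa1b, Fabp1 and Slc22a5), against 2.36% of all genes positive. The difference was positive in 24 of the 26, with a median of 0.65 beside 0.06 for all genes. With 1 library left out, 1 to 11 of the 26 were called. In antibiotic water the meal raised 12 of the 26, against 1026 of all 13180 genes. In control water it changed none of the 26, where only 0.577% of all genes were called. Among 18 peroxisomal genes 2 were called, both positive, Crot among them, with a list median of 0.62. Among 11 acyl-CoA thioesterases, a family in which some members are near-identical copies, edgeR called only Acot2, with a difference of 2.75 ± 0.48. DESeq2 gave 2 positive and 1 negative call in that family.

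Fgf21 and Inhbe encode hormones that the liver secretes, and Fgf21 is a PPAR-alpha and ATF4 target of fasting and nutrient stress. Fgf21 (chromosome 7, 45613886 to 45615490, minus strand) had 4.68, 0.861, 7.53 and 7.17 CPM in fast food antibiotic livers, against 0.667, 0.525, 0.115 and 0 CPM in chow antibiotic livers. With control water, Fgf21 had 4.44, 2.56, 2.19 and 2.64 CPM in fast food control livers, against 4.19, 5.84, 7.98 and 6.85 CPM in chow control livers. It was lowest in the chow antibiotic livers, 1 of which had no read, with fast food antibiotic replicate 2 the nearest to them. The meal effect was 3.77 in antibiotic and -1.08 in control water, a difference of 4.86 ± 0.82 (adjusted p = 0.00732). Inhbe, the inhibin beta E subunit, had 34.7, 10.6, 56.9 and 47.1 CPM in fast food antibiotic livers, against 5.28, 4.55, 0.688 and 1.99 CPM in chow antibiotic livers, and 44.2, 34.1, 17.4 and 41.7 CPM in fast food control livers, against 52.5, 67.8, 50.9 and 53.5 CPM in chow control livers. The difference of Inhbe was 4.26 ± 0.76 (adjusted p = 0.0111), and its groups did not overlap in either water. The hepatokine gene Fetub had a negative difference of -1.08, and 4 of 22 tested hepatokines and inhibins were called.

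Bdh1, the enzyme that interconverts the ketone bodies, was the 1 of 8 ketone genes called, beside 3.94% of all genes. Of the 8 differences 4 were positive, and the list median was 0.03, beside 0.06 for all genes. Bdh1 had 141, 44.7, 202 and 192 CPM in fast food antibiotic livers, against 14.2, 9.81, 26.8 and 20.6 CPM in chow antibiotic livers, without overlap. With control water, Bdh1 had 284, 248, 233 and 249 CPM in fast food control livers, against 261, 215, 313 and 312 CPM in chow control livers, with overlap. Chow antibiotic livers lay below the other 12, and the difference was 3.14 ± 0.53 (adjusted p = 0.00874). Cpt1a, the gate of mitochondrial fatty acid import, had a difference of 0.92 (adjusted p = 0.0708). Pdk4, the kinase that spares pyruvate in fasting, had 1.38 (adjusted p = 0.183). Fabp1, the main fatty acid binding protein of hepatocytes, had 1176, 389, 2253 and 1539 CPM in fast food antibiotic livers, against 132, 113, 250.4 and 372 CPM in chow antibiotic livers. With control water, Fabp1 had 3903, 2466, 2745 and 2511 CPM in fast food control livers, against 3894, 2489, 4325 and 4352 CPM in chow control livers. The difference was 3.00 ± 0.65 (adjusted p = 0.024), with overlap in control water only.

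Ppara itself, which encodes the receptor, had 206, 96.2, 239 and 195 CPM in fast food antibiotic livers, against 74.2, 55.1, 85.5 and 31.7 CPM in chow antibiotic livers. With control water, Ppara had 212, 214, 167 and 217 CPM in fast food control livers, against 204, 156, 200.3 and 184 CPM in chow control livers. Chow antibiotic livers again lay below the other 12, and the difference was 1.45 ± 0.38 (adjusted p = 0.0467). Bdh1, Ppara and Gstp1 were singled out after their values were seen, as were the low genes Atp2b2 and Rims2, while other named genes came from the naming rule or complete the calls of a list.

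Lipid droplet genes gave 3 calls among 19 tested in edgeR, all positive, and 4 positive and 1 negative call in DESeq2. Plin2, the droplet coat protein, had 515, 167, 446 and 401 CPM in fast food antibiotic livers, against 99.7, 107, 94.4 and 183 CPM in chow antibiotic livers. With control water, Plin2 had 484, 362, 457 and 507 CPM in fast food control livers, against 684, 887, 719 and 988 CPM in chow control livers. The meal effects were 1.66 in antibiotic and -0.86 in control water, a difference of 2.52 ± 0.40 (adjusted p = 0.00493), and the antibiotic groups overlapped through fast food antibiotic replicate 2. G0s2, the inhibitor of the lipase ATGL, had 52.3, 2.15, 116 and 49.9 CPM in fast food antibiotic livers, against 2.56, 4.55, 1.83 and 0.284 CPM in chow antibiotic livers. With control water, G0s2 had 182, 77, 68.6 and 166 CPM in fast food control livers, against 98.6, 159, 156 and 103 CPM in chow control livers. Its difference was 4.58 ± 1.16 (adjusted p = 0.0458), and that of the monoglyceride lipase Mgll was 1.26 ± 0.30.

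Among 16 tested genes that desaturate or elongate polyunsaturated fatty acids edgeR called 4, the elongation genes Elovl2, Elovl3, Elovl5 and Hacd3, all positive. DESeq2 gave 6 positive and 2 negative calls in this list, and the fit without the 3 libraries high in acute phase transcripts 8 and 2. Elovl5, which elongates polyunsaturated fatty acids, had 914, 137, 806 and 752 CPM in fast food antibiotic livers, against 95.4, 105, 183 and 197 CPM in chow antibiotic livers. With control water, Elovl5 had 838, 934, 706 and 676 CPM in fast food control livers, against 1013, 1088, 937 and 1286 CPM in chow control livers. The difference was 2.62 ± 0.59 (adjusted p = 0.0278), and fast food antibiotic replicate 2 lay within the chow antibiotic range. Elovl2 had a difference of 2.41 ± 0.52 and Elovl3 one of 3.88 ± 1.00 (adjusted p = 0.0488). Of 16 genes of lipid synthesis only Acacb, the acetyl-CoA carboxylase whose product blocks fatty acid import, was called, at 1.09 ± 0.28. Fasn (-0.20, adjusted p = 0.853) and Scd1 (3.97, adjusted p = 0.118) were not called by edgeR. DESeq2 gave 3 positive and 1 negative call among the genes of lipid synthesis.

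In 8 lipid genes the 1 fast food antibiotic library nearest to the chow antibiotic group was replicate 2, a library with high acute phase transcripts. Without that library and the other 2 high in acute phase transcripts, the difference was 4.99 for Fgf21, 4.31 for Inhbe, 3.56 for Bdh1, 3.81 for Fabp1, 2.95 for Plin2, 4.58 for G0s2, 3.10 for Elovl5 and 1.49 for Ppara. All 8 were called in that fit, and 14 of the 26 PPAR-alpha targets were called, all positive. That fit left out the very library that lay nearest to the chow antibiotic group, so it is no separate test. After adjustment for rRNA-like counts, Fabp1 (adjusted p = 0.052), Ppara (0.0659), Elovl5 (0.0721) and G0s2 (0.076) lost the call. Fgf21, Inhbe, Bdh1 and Plin2 kept it. When libraries were split at 1% of such counts, only Elovl5 (0.0546) and G0s2 (0.0604) of the 8 lost it.

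**Figure D3:**
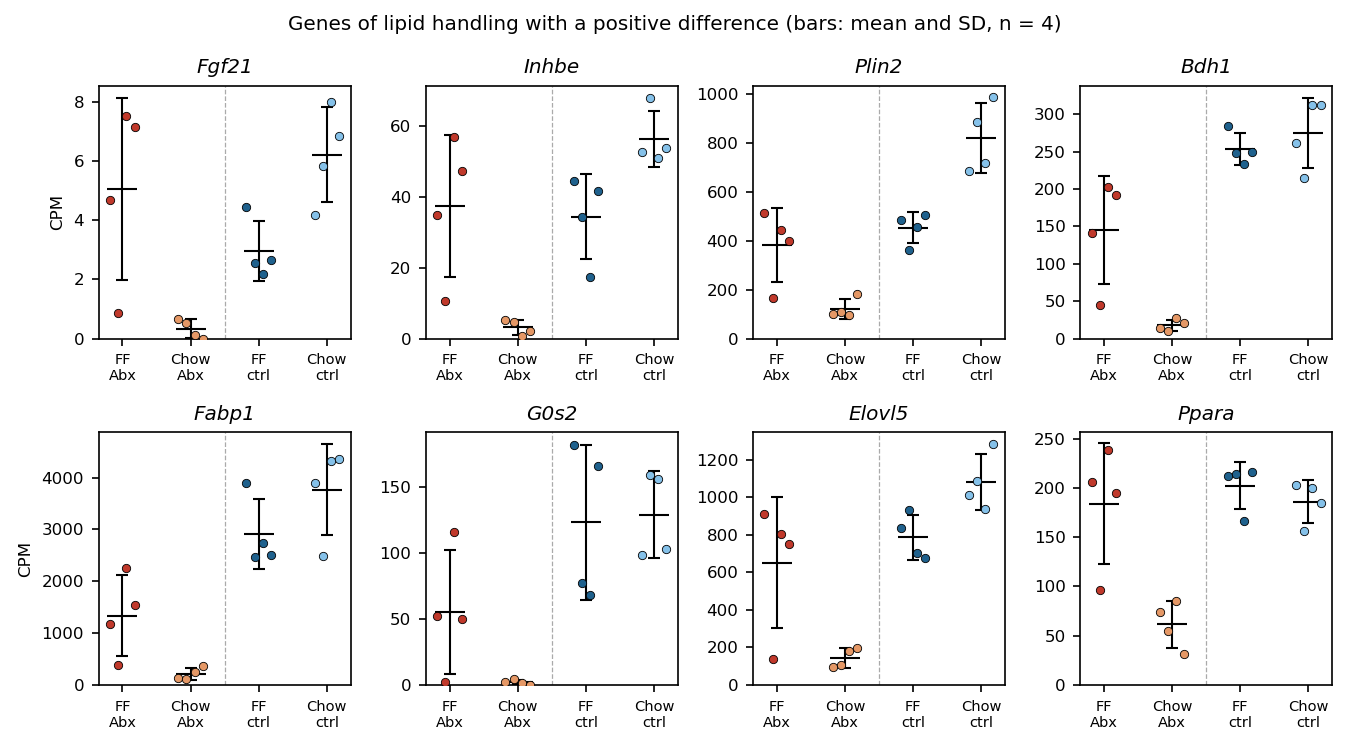
CPM of 8 genes of lipid handling with a positive meal-by-water difference, one point per library, with the mean and SD of 4 libraries as bars. The chow antibiotic group is lowest in each panel, and the lowest of the 4 fast food antibiotic points is replicate 2.

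The promoters of Fgf21, Fabp1 and Hsph1, genes with a positive difference, are printed as examples that held a searched motif. This choice was made after the matches were seen. The C/EBP-ATF element also stood in the window of Sult1e1 and the heat shock element in that of Ahcy, both with a negative difference. Capitals mark the matches. In the Fgf21 window (chr7:45615441-45615740, minus strand) a C/EBP-ATF element, bound by ATF4, began 140 bases before the start and an E-box 50 bases before it. In the Fabp1 window (chr6:71199629-71199928, plus strand) a DR1 began 67 bases before the start. In the Hsph1 window (chr5:149636287-149636586, minus strand) an E-box lay at base 3 and a heat shock element at base 37 of the RefSeq transcript. A match describes letters only and shows no binding.
Fgf21: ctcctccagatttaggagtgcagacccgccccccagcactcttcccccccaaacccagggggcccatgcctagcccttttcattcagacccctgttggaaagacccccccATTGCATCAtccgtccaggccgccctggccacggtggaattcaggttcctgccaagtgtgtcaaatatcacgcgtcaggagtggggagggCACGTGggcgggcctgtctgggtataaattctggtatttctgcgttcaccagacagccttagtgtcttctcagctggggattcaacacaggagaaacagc
Fabp1: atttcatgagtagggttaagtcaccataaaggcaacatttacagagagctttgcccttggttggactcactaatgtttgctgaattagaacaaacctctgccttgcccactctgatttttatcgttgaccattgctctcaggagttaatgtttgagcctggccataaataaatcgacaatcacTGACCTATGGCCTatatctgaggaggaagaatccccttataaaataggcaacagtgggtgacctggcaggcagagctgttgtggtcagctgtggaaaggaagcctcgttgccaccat
Hsph1: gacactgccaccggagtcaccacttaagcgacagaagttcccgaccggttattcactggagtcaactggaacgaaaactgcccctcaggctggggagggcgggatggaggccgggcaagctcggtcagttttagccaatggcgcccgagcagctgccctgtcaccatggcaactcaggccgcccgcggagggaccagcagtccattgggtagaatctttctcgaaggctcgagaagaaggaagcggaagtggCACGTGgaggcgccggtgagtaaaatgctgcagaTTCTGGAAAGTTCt

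Over 20592 RefSeq promoters of this length, the DR1 stood in 0.981%, the CRE in 2.22%, the C/EBP-ATF element in 0.918%, the E-box in 7.66% and the heat shock element in 0.539%. Of the 61 called genes that the rule named, 51 had a promoter, and the DR1 stood in 1, the CRE in 1, the C/EBP-ATF element in 2, the E-box in 8 and the heat shock element in 2 of them. Over the 10368 promoters of tested genes the shares were 0.993%, 3.13%, 0.502%, 10.1% and 0.444% in that order. The DR1 stood in 1 of 241 promoters of genes called positive (0.415%) and in 5 of 152 of genes called negative (3.29%). The E-box stood in 11.2% of positive and 8.55% of negative ones.

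Cytosolic heat shock and cold-inducible genes gave 3 calls among 15 tested. Hsph1, a large co-chaperone of HSP70, had a difference of 2.11 ± 0.46 (adjusted p = 0.0237). Dnaja1, an HSP40 co-chaperone, had 74.8, 77.5, 94.5 and 110.1 CPM in fast food antibiotic livers, against 44.4, 43.3, 48.6 and 38.6 CPM in chow antibiotic livers, and 98.2, 104, 92.4 and 90.8 CPM in fast food control livers, against 111, 92.2, 117 and 95.6 CPM in chow control livers. Chow antibiotic livers lay below the other 12, and the difference of Dnaja1 was 1.14 ± 0.18 (adjusted p = 0.00445). Cirbp, an RNA-binding protein that is higher in the cold, went the other way at -1.38 ± 0.23 (adjusted p = 0.00499).

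Bile acid synthesis gave 3 calls among 15 tested, all negative, with a list median of -0.59. Cyp7b1 (chromosome 3, 18071950 to 18243338, minus strand), the oxysterol hydroxylase of the alternative pathway, had 119, 106, 157 and 130.0 CPM in fast food antibiotic livers, against 355, 806, 697 and 422 CPM in chow antibiotic livers. With control water, Cyp7b1 had 295, 156, 167 and 135 CPM in fast food control livers, against 112, 70.4, 92.7 and 102 CPM in chow control livers. Neither pair overlapped, the meal effect was -2.16 in antibiotic and 1.00 in control water, and the difference was -3.15 ± 0.39. Cyp27a1, which starts that pathway, had a difference of -0.94 ± 0.21, and Slc27a5, which activates bile acids for conjugation, one of -1.02 ± 0.19. Cyp7a1, the rate-limiting enzyme of the classical pathway, had -1.39 ± 1.41 (adjusted p = 0.616), and Cyp8b1, the 12-alpha hydroxylase, had 1.85 ± 0.92 (adjusted p = 0.273). Of 16 genes of bile acid and sterol transport and feedback none was called by edgeR, beside 3.94% of all genes. Of the 16, 3 had an unadjusted p under 0.05, beside 2785 of all 13180 genes, and 2 were called by DESeq2.

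Cholesterol synthesis and uptake genes, the targets of SREBP2, gave 1 call among 24 tested, Tmem97 at -1.01 ± 0.24. The difference was positive in 2 of the 24, and the list median was -0.99. Leaving out 1 library gave 0 to 12 calls in this list, and dropping the 3 libraries highest in acute phase transcripts gave 16, all negative.

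Choline, betaine and trimethylamine metabolism held the most calls of any list, 7 of 21 tested, 6 of them negative, against 1.58% of all genes negative. Leaving out 1 library gave 3 to 8. Dmgdh, which breaks down dimethylglycine from betaine, had 591, 1103, 809 and 481 CPM in fast food antibiotic livers, against 1815, 1826, 1293 and 1299 CPM in chow antibiotic livers. With control water, Dmgdh had 724, 771, 751 and 642 CPM in fast food control livers, against 416, 496, 400.0 and 426 CPM in chow control livers. Neither pair overlapped, and the difference was -1.79 ± 0.29 (adjusted p = 0.00484). The methyl-cycle enzymes Gnmt (-1.17 ± 0.21) and Ahcy (-0.79 ± 0.16), the phosphatidylcholine enzyme Pemt (-0.71 ± 0.19) and the monooxygenase Fmo2 (-1.40 ± 0.37) were also negative. Chdh, which turns choline into betaine aldehyde, was the exception at 1.02 ± 0.22.

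Some named genes of conjugation and transport had negative differences. Among 11 tested organic ion transporters 1 was called positive, Slc22a5 (1.56 ± 0.30), and 1 negative, Slc22a7, with a median of -0.06. Sult1e1, the estrogen sulfotransferase, had 6.87, 35.5, 7.17 and 1.89 CPM in fast food antibiotic livers, against 106, 124, 61.9 and 26 CPM in chow antibiotic livers. With control water, Sult1e1 had 3.0, 2.46, 2.04 and 2.03 CPM in fast food control livers, against 0, 0.549, 0.0991 and 0.523 CPM in chow control livers. The antibiotic groups overlapped and the control groups did not, and the difference was -5.50 ± 1.29 (adjusted p = 0.0354), with 1 chow control library at 0. Sult1d1 had -2.08 ± 0.36 (adjusted p = 0.00736). Ugt2a3, a glucuronosyltransferase, had 253, 351, 331 and 239.8 CPM in fast food antibiotic livers, against 477, 574, 583 and 467 CPM in chow antibiotic livers, and 336, 313, 289 and 277 CPM in fast food control livers, against 197, 204, 227 and 237 CPM in chow control livers, without overlap in either water. The difference of Ugt2a3 was -1.33 ± 0.19 (adjusted p = 0.00348). Slc22a7, the organic anion transporter OAT2, had 1.49, 3.88, 5.31 and 0.849 CPM in fast food antibiotic livers, against 3.06, 2.19, 2.75 and 2.27 CPM in chow antibiotic livers. With control water, Slc22a7 had 6.85, 7.04, 8.05 and 10.6 CPM in fast food control livers, against 0.537, 0.687, 0.892 and 2.14 CPM in chow control livers. Its 4 fast food control libraries lay above the other 12, and the meal effect was 0.21 in antibiotic and 2.85 in control water, a difference of -2.65 ± 0.64.

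Glutathione transferases, which attach glutathione to electrophiles, split by direction, with 3 positive and 2 negative calls among 20. Gstp1 had 231, 85.4, 132 and 182 CPM in fast food antibiotic livers, against 114, 202, 158 and 202 CPM in chow antibiotic livers. With control water, Gstp1 had 318, 166, 228 and 165 CPM in fast food control livers, against 789, 571, 819 and 794 CPM in chow control livers. The chow control livers lay above the other 12, and the difference was 1.66 ± 0.40 (adjusted p = 0.0322). Gstm1 (0.75 ± 0.18) and Gstm4 (1.12 ± 0.27) were positive, and Gstt1 (-0.88 ± 0.23) and Gstt3 (-2.07 ± 0.41) negative. Among 21 targets of the drug receptors CAR and PXR only Cyp2c50 (-1.79 ± 0.35) and Cyp2c54 (-1.76 ± 0.34) were called. The Gst, Cyp2c, Sult1 and Ugt2 families hold near-identical copies, and the handling of multi-mapping reads was not given in the sources used here, so values of single members are uncertain.

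**Figure D4:**
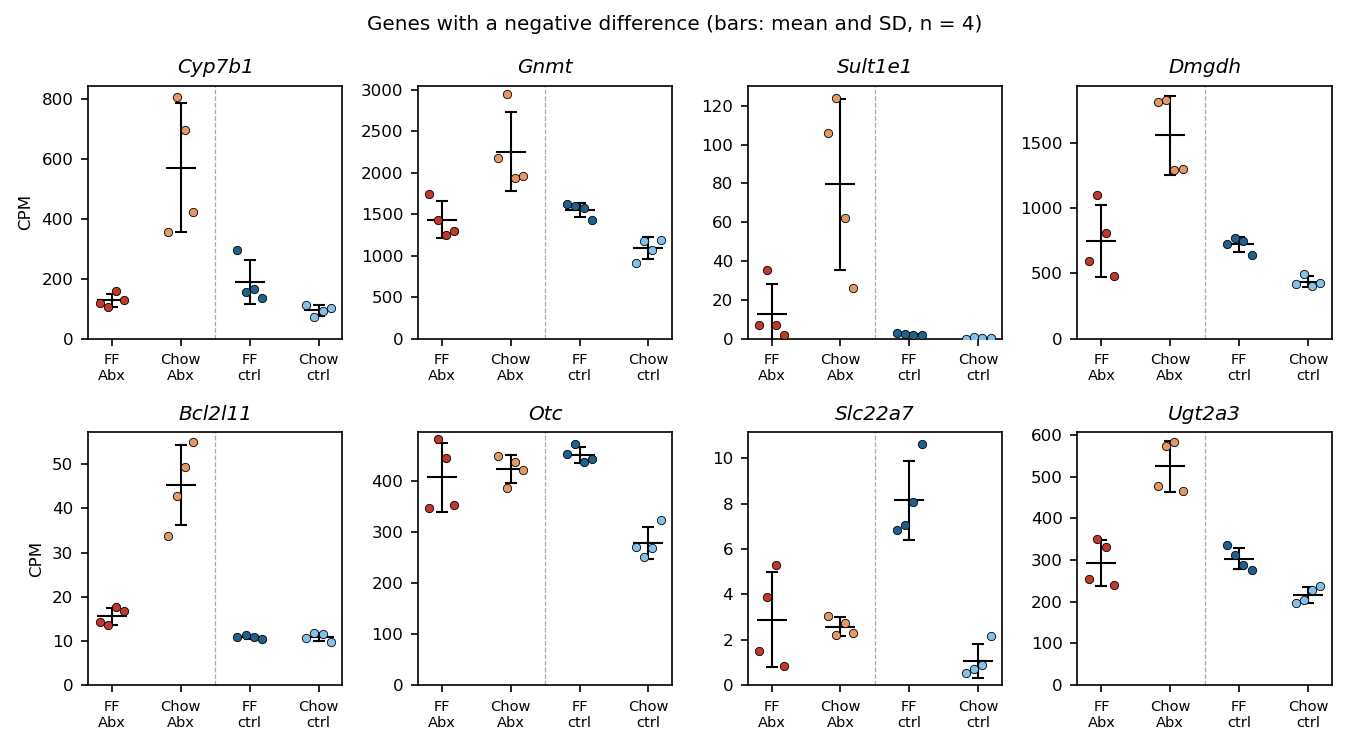
CPM of 8 genes with a negative meal-by-water difference, one point per library, with the mean and SD of 4 libraries as bars. Chow antibiotic livers are highest on average in 6 panels, chow control livers are lowest in Otc, and fast food control livers are highest in Slc22a7.

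Calls of nitrogen handling genes and apolipoproteins were negative in edgeR, but not under every alternative. DESeq2 gave 2 positive and 5 negative calls of apolipoproteins and 1 positive and 3 negative of urea cycle genes. Without the 3 libraries high in acute phase transcripts there were 4 positive and 5 negative calls of apolipoproteins, 2 positive and 5 negative of amino acid breakdown, and 1 positive and 3 negative of urea cycle genes. Of 13 urea cycle and ammonia genes 3 were called, Otc, Nags and Rhbg. Otc, the urea cycle enzyme on the X chromosome, had 346, 483, 445 and 354 CPM in fast food antibiotic livers, against 449, 387, 438 and 421 CPM in chow antibiotic livers, which overlapped. With control water, Otc had 453, 471, 436 and 442 CPM in fast food control livers, against 269.9, 252, 269 and 323 CPM in chow control livers, with chow control livers below the other 12. The difference was -0.75 ± 0.17 (adjusted p = 0.0235), with a meal effect of -0.06 in antibiotic and 0.69 in control water. The activator synthase Nags had -0.81 ± 0.20 and the ammonia channel Rhbg -1.98 ± 0.46. Amino acid breakdown gave 3 calls among 24, Fah (-0.65 ± 0.16), Prodh (-1.07 ± 0.24) and Got1 (-1.57 ± 0.41), the enzymes of tyrosine, proline and aspartate. Apolipoproteins gave 4 calls among 19, Apoa1 (-0.98 ± 0.22), Apoa2 (-0.95 ± 0.23), Apoc3 (-1.11 ± 0.25) and Apoh (-1.03 ± 0.21), with a list median of -0.32. The 7 hepatocyte markers, whose summed levels stand above, had a median difference of -0.69, with 6 of the 7 negative and 5 at an unadjusted p under 0.05. The 1 called was Apoa1, which is in both lists, and the part of this marker difference in the negative groups was not tested.

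Other genes with the largest differences were low in level. Cntnap1 (5.04 ± 0.94), Cgref1 (4.33 ± 0.91), Agap2 (4.01 ± 0.75), Chad (3.81 ± 0.68), Klhdc7a (3.46 ± 0.54) and Tlr12 (3.28 ± 0.70) were positive, and each was lowest on average in chow antibiotic livers. Cntnap1 had 19.6, 1.22, 13.4 and 40.2 CPM in fast food antibiotic livers, against 1.0, 1.14, 1.38 and 2.56 CPM in chow antibiotic livers. In Cntnap1, Cgref1, Agap2 and Tlr12 the antibiotic groups overlapped through fast food antibiotic replicate 2. They did not overlap in Chad, Klhdc7a or the negative genes that follow. Ptgfr, the prostaglandin F receptor (-4.57 ± 0.70), Myom3 (-3.25 ± 0.67), Tmem200b (-2.62 ± 0.49) and Tes (-2.24 ± 0.46) were negative, and each was highest on average in chow antibiotic livers. Their highest group means ran from 4.59 CPM for Chad to 28.7 CPM for Klhdc7a. The chemokine gene Ccl25 had a difference of 1.62 ± 0.24 (adjusted p = 0.00348).

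Several stress and signalling lists held no call in edgeR. Over all genes 3.94% were called, and 2785 of 13180 had an unadjusted p under 0.05. The absence of calls alone therefore does not set lists this short apart from all genes. None of 18 immediate early genes was called, with 3 at an unadjusted p under 0.05 and 2 called by DESeq2, although none had a positive difference and the median was -0.74. None of 25 acute phase genes was called (2 and 1), nor any of 22 endoplasmic reticulum chaperones and XBP1 targets (8 and 2, median -0.63), nor any of 19 genes of the ATF4 stress response (4 and 2, median -0.58). Atf4 had -0.89 ± 0.29 (adjusted p = 0.0877). None of 17 glucocorticoid targets (3 and 1), 15 fasting and gluconeogenesis genes (1 and 1), 20 genes of sugar uptake and glycolysis (6 and 1) or 16 NRF2 targets (2 and 1) was called. The gluconeogenic genes Pck1 and G6pc had 0.20 and -0.07, with adjusted p of 0.868 and 0.973. Nor was any of 29 mitochondrial ribosomal protein genes (3 and 1) or 12 periportal genes (3 and 0) called. Without the 3 libraries high in acute phase transcripts, 13 chaperone and XBP1 genes were called, all negative. Since these libraries were picked by their acute phase level, the calls of acute phase genes without them are no test and are not given, nor are those of immediate early genes. The summed level of the 25 acute phase genes was 25900 to 101000 CPM in fast food antibiotic, 49000 to 93800 in chow antibiotic, 30800 to 34100 in fast food control and 34600 to 60300 in chow control livers.

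Calls in lists of immune, clock and receptor genes numbered 1 or 2 each, beside 3.94% called over all genes. Of 28 interferon-response genes only Zbp1 was called (1.84 ± 0.42), with 23 of the 28 differences positive and a list median of 0.50. Leaving out 1 library gave 0 to 3 interferon calls, and dropping the 3 libraries high in acute phase transcripts gave 8, all positive. Of 20 genes of Toll-like receptor and endotoxin sensing only Tlr5 was called (2.35 ± 0.60), the flagellin receptor. Of 19 clock genes 2 were called, Cry1 (-1.21 ± 0.29) among them, and of 30 nuclear receptors Ppara and Esr1 (1.06 ± 0.27). Of 16 iron genes only Hamp2 was called (-1.73 ± 0.45), a near copy of Hamp, which had -0.69 (adjusted p = 0.354). Ribosomal protein genes gave 1 call among 37, Rps14, with a median of -0.38, and the respiratory chain gave 1 among 37.

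Markers of other liver cells were compared in the same way, since in bulk liver fewer cells of a type and less RNA per cell cannot be told apart. The 9 endothelial markers gave 2 positive calls, Stab1 (0.91 ± 0.19) and Stab2 (0.59 ± 0.15), scavenger receptors of the sinusoid, with summed levels of 519 to 583 CPM in fast food antibiotic, 435 to 517 in chow antibiotic, 454 to 521 in fast food control and 500 to 532 in chow control livers. None of 7 genes of MHC class II was called by edgeR, with 4 at an unadjusted p under 0.05 and 1 called by DESeq2. All 7 differences were positive, with a median of 2.00, and the summed level was 23.5 to 92.1 CPM in fast food antibiotic, 12.3 to 26.6 in chow antibiotic, 80.1 to 160 in fast food control and 64.6 to 336 in chow control livers. No tested marker of Kupffer cells (11 tested), neutrophils (4), lymphocytes (3), stellate cells (13), cholangiocytes (5), erythroid cells (5) or pancreas (2) was called by edgeR or by DESeq2. Of these, 5 stellate and 1 cholangiocyte marker had an unadjusted p under 0.05. Over all genes 3.94% were called by edgeR, and 2785 of 13180 had an unadjusted p under 0.05.

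**Figure D5:**
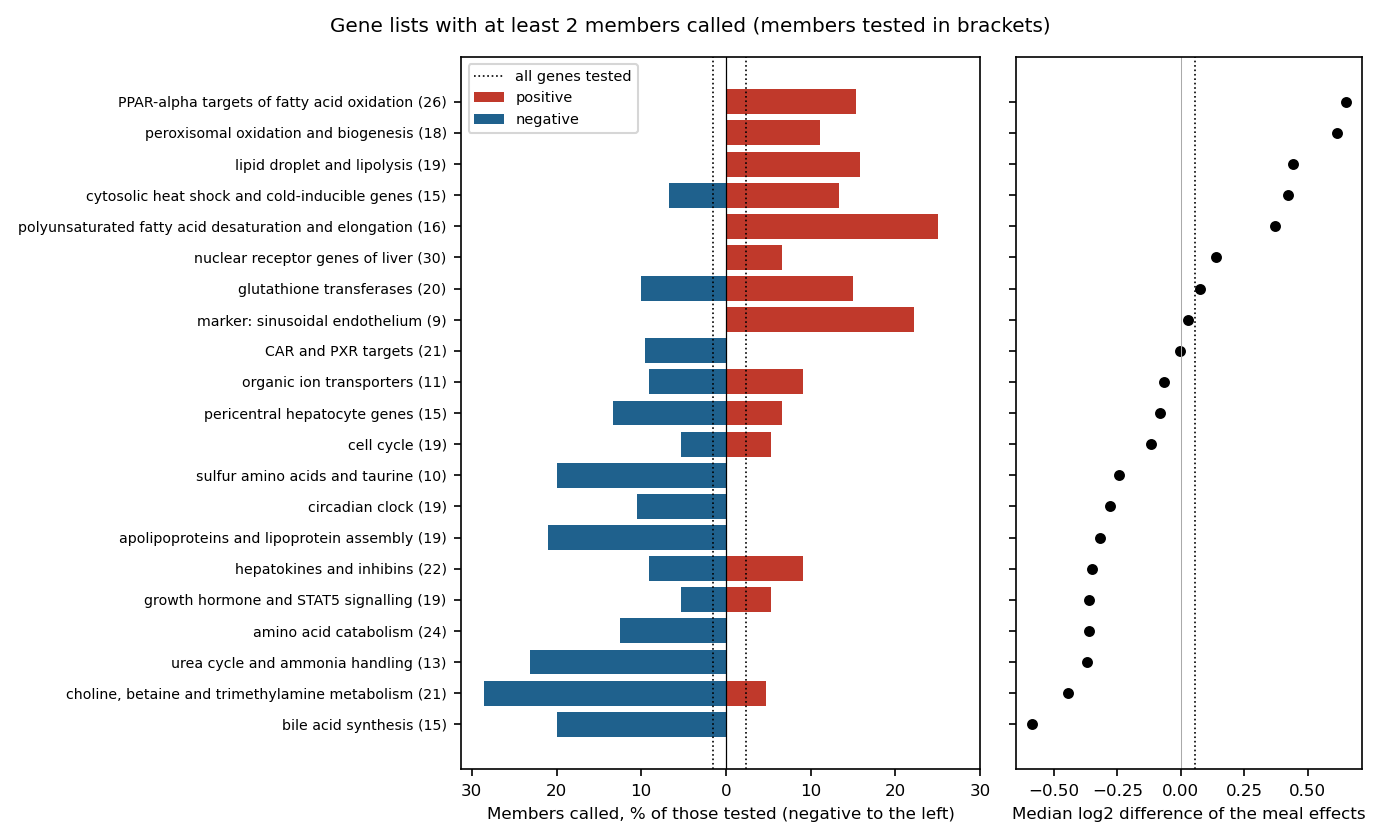
Gene lists with at least 2 called members. The left panel gives the percentage of tested members called positive (red, to the right) and negative (blue, to the left), with dotted lines at 2.36% and 1.58% for all tested genes, and the right panel gives each list's median log2 difference. Lists of fatty acid use lie at the top, with PPAR-alpha targets at a median of 0.65, and choline metabolism and bile acid synthesis at the bottom, with medians of -0.44 and -0.59.

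Of the 62 named genes that were called, 36 kept the call when any 1 of the 16 libraries was left out, and 26 lost it for at least 1. All 62 kept the sign of the difference under every alternative run, and all were called by DESeq2. The highest adjusted p in edgeR came without chow control replicate 1 for Got1 (0.0892), Nags (0.0841), Sult1e1 (0.0759), Fah (0.0702), Slc22a7 (0.0691), Rhbg (0.0624), Mgll (0.0607), Fetub (0.0592), Cyp27a1 (0.0556) and Cpt2 (0.0554). It came without fast food control replicate 3 for Ppara (0.0979), G0s2 (0.094), Gstm1 (0.0759), Elovl5 (0.0644), Apoa1 (0.0584), Fabp1 (0.0572), Prodh (0.0572) and Cgref1 (0.0521). It came without fast food antibiotic replicate 4 for Gstp1 (0.0752), Apoc3 (0.0564), Otc (0.0559), Elovl2 (0.0557), Hsph1 (0.0554) and Tlr12 (0.0542). For Gstm4 (0.0704) it came without fast food antibiotic replicate 3, and for Elovl3 (0.0968) without chow antibiotic replicate 2. For the lists with calls described above, leaving out 1 library gave 0 to 10 calls of peroxisomal genes, 1 to 6 of lipid droplet genes, 2 to 7 of hepatokines, 1 to 8 of desaturation and elongation genes, 2 to 8 of bile acid synthesis, 1 to 6 of glutathione transferases, 0 to 8 of amino acid breakdown, 0 to 5 of urea cycle genes, 2 to 5 of heat shock genes and 1 to 9 of apolipoproteins. It gave 1 to 5 of thioesterases, 0 to 5 of lipid synthesis, 2 to 6 of CAR and PXR targets, 0 to 4 of clock genes, 0 to 5 of nuclear receptors, 0 to 7 of ribosomal proteins and 0 to 4 of hepatocyte markers. The highest of each came without fast food antibiotic replicate 2, and for glutathione transferases also without chow antibiotic replicate 4. The ranges were 0 to 2 for iron genes, endotoxin sensing and the respiratory chain, and 1 to 2 for organic ion transporters and endothelial markers. Calls were lost most often for Elovl3 and G0s2, lost when any 1 of 15 libraries was left out, and for Ppara and Sult1e1, lost for any 1 of 13. Without the 3 libraries high in acute phase transcripts 61 of the 62 were called, all but Got1 (adjusted p = 0.0715). With that covariate for rRNA-like counts 40 were called, and with the libraries split at 1% of that share 46.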

How the data were processed

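Poly(A) libraries of mouse liver RNA were read as single 50-base reads, per the labels' protocols. The authors deposited whole-number gene counts without normalization. Per the submitters' processing notes, GRCm38.p6, STAR and HTSeq were used beside cutadapt, FastQC, edgeR and DESeq2. Details on annotation release, strand setting and multi-mapping reads were not given in the sources used here. Of 25006 gene identifiers 24942 matched GENCODE M21 (GRCm38), the source of coordinates and exon overlaps.

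From the counts, edgeR 4.0.16 in R 4.3.3 kept genes by filterByExpr (minimum count 10), scaled libraries with TMM factors and fitted a robust quasi-likelihood model with 1 mean per group over all 16 libraries (common biological coefficient of variation 0.222). The contrasts were two-sided, with Benjamini-Hochberg adjustment over 13180 genes and a threshold of 0.05. The standard error is the absolute log2 value divided by the square root of F. In simulated counts of 13006 genes, 39% of 100 genes with a meal-by-water difference of 1 and 87% of 100 with one of 2 were called. The changes were placed in the fast food antibiotic group only and not in the lowest genes. No simulated library was made to stand apart across genes, as some real ones did, so these shares may not hold for the data.

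The 52 gene lists (830 tested genes, 69 called) and the naming rule were chosen with earlier results of these data known. The rule took the 10 most positive, the 10 most negative and the 8 of lowest p among called genes whose mean log2 CPM reached 1, up to 3 members of each list with 3 calls, genes called in both waters, and 16 genes of liver metabolism whether called or not, 74 in all. A few genes are not reported here. Alternatives were DESeq2 1.42.0, RLE factors, no filter, a mean of 10 counts in every group, a replicate block and each library left out. Another 4, chosen after seeing the data, concern libraries high in acute phase or rRNA-like counts. The labels state random assignment but not that each replicate is a separate mouse, so p-values measure the spread between these samples, which may be partly technical.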

Additional observations from a re-analysis of the deposited data

Results flagged for a closer look

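The meal effect differed between antibiotic and control water for 519 genes by a test of the difference itself, the interaction term of edgeR's quasi-likelihood model, at an adjusted p under 0.05. The log2 differences (antibiotic minus control water, with SE) of the named genes among them follow in order of size. The most positive were Cntnap1 (5.04 ± 0.94), Fgf21 (4.86 ± 0.82), G0s2 (4.58 ± 1.16), Cgref1 (4.33 ± 0.91), Inhbe (4.26 ± 0.76) and Agap2 (4.01 ± 0.75). Next came Elovl3 (3.88 ± 1.00), Chad (3.81 ± 0.68), Klhdc7a (3.46 ± 0.54), Tlr12 (3.28 ± 0.70), Bdh1 (3.14 ± 0.53) and Fabp1 (3.00 ± 0.65). These were followed by Elovl5 (2.62 ± 0.59), Plin2 (2.52 ± 0.40), Elovl2 (2.41 ± 0.52), Hsph1 (2.11 ± 0.46) and Tbx3 (2.04 ± 0.41). Smaller positive differences belonged to Nt5dc2 (1.94 ± 0.35), Pgm3 (1.78 ± 0.25), Gstp1 (1.66 ± 0.40), Ccl25 (1.62 ± 0.24), Slc22a5 (1.56 ± 0.30) and Cul7 (1.55 ± 0.24). Below these stood Prps2 (1.53 ± 0.22), Ppara (1.45 ± 0.38), Mgll (1.26 ± 0.30), Cpt2 (1.16 ± 0.26), Dnaja1 (1.14 ± 0.18) and Gstm4 (1.12 ± 0.27). Last among the positive ones were Nfe2l1 (1.06 ± 0.14), Hacd3 (0.80 ± 0.17) and Gstm1 (0.75 ± 0.18). 

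The most negative were Sult1e1 (-5.50 ± 1.29), Ptgfr (-4.57 ± 0.70), Myom3 (-3.25 ± 0.67), Cyp7b1 (-3.15 ± 0.39) and Slc22a7 (-2.65 ± 0.64). After these came Tmem200b (-2.62 ± 0.49), Tes (-2.24 ± 0.46), Sult1d1 (-2.08 ± 0.36), Gstt3 (-2.07 ± 0.41), Rhbg (-1.98 ± 0.46) and Dmgdh (-1.79 ± 0.29). Differences nearer to 0 belonged to Got1 (-1.57 ± 0.41), Bcl2l11 (-1.52 ± 0.19), Cirbp (-1.38 ± 0.23), Ugt2a3 (-1.33 ± 0.19), Amy1 (-1.30 ± 0.20) and Gpld1 (-1.29 ± 0.18). Behind them stood Gnmt (-1.17 ± 0.21), Apoc3 (-1.11 ± 0.25), Fetub (-1.08 ± 0.25), Prodh (-1.07 ± 0.24), Apoh (-1.03 ± 0.21) and Slc27a5 (-1.02 ± 0.19). Still smaller ones belonged to Apoa1 (-0.98 ± 0.22), Cyp27a1 (-0.94 ± 0.21), Asgr2 (-0.89 ± 0.16), Nags (-0.81 ± 0.20), Ahcy (-0.79 ± 0.16) and Otc (-0.75 ± 0.17). The least negative was Fah (-0.65 ± 0.16).

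An outlier check used 100 sets of 4 libraries, from 25 genes with printed values in 4 groups, without Atp2b2 and Rims2. In 8 sets 1 library lay far from the other 3, with Dixon's ratio of gap to range above the 95% limit of 0.829. Chance alone marks about 1 in 20 such sets. Fast food antibiotic replicate 2 stood apart for Sult1e1 (35.5 CPM). Among chow antibiotic libraries, replicate 2 stood apart for Nt5dc2 (1.66 CPM) and Prps2 (6.39 CPM), replicate 3 for Cul7 (3.67 CPM) and replicate 4 for Plin2 (183 CPM). Fast food control replicate 3 stood apart for Ppara (167 CPM). Chow control replicate 2 stood apart for Inhbe (67.8 CPM) and Gstp1 (571 CPM).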

How the results depend on the processing

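The main counts were 519 genes for the meal-by-water difference, 1800 and 76 for the meal effect in antibiotic and in control water, and 69 list members. Scaling by RLE, dropping the low-count filter, asking for a mean of 10 counts in each group and the replicate block kept all 4 within 1.5-fold, with 526, 378, 516 and 355 genes for the difference and 70, 53, 69 and 50 list members. The share of positive calls was 59.9% in the main fit, 52.9% with RLE factors and 51.3% with DESeq2, and 49.4% without the 3 libraries high in acute phase transcripts. DESeq2 called 1120 genes for the difference, 305 for the meal in control water and 142 list members. Leaving out 1 library gave 164 to 1494 genes for the difference, 697 to 3042 and 11 to 155 for the meal in antibiotic and control water, and 25 to 186 list members. The lowest 3 of these came without fast food antibiotic replicate 4 (164 and 697) and fast food control replicate 2 (11), and the highest 3 without fast food antibiotic replicate 2. Of the alternatives chosen after seeing the data, leaving out the 3 libraries gave 1851, 3206 and 160 genes and 251 list members. The rRNA-like share as a covariate gave 183 genes for the difference, 21 for the meal in control water and 27 list members, and the split at 1% gave 262, 17 and 39. The low-share libraries alone gave 595 genes for the difference, and 1129 and 156 for the meal in antibiotic and control water, with 1 fast food antibiotic library assumed to vary like the others. The cause of these changes was not tested.

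Replicate numbers did not pair the libraries: 3 of 24 same-numbered pairs had deviations correlated above 0.1 (-0.222 to 0.359), and 1 of 16 libraries correlated best with its own number. With the replicate block 355 genes were called for the difference, and 1547 and 65 for the meal effects. No named gene that was called reversed. Among genes that were not called, G6pc moved to 0.061 with the replicate block, lay at -0.50 to 0.56 with 1 library left out (above 0 for 5 libraries), and moved to 0.61 with the covariate and to 0.69 with the split. Pck1 lay at -0.17 (without chow antibiotic replicate 4) to 0.63 with 1 library left out, and moved to -0.087 without the 3 libraries and -0.51 in the low-share libraries. Fasn lay at -0.66 to 0.019 (without fast food antibiotic replicate 1) with 1 library left out, and moved to 0.018 with the covariate and 0.044 in the low-share libraries. Depth limits the low genes most, such as Fgf21, Rims2 and Atp2b2, at under 10 CPM.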

Other observations

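A few lists outside the account above also held called genes. Cdo1, which commits cysteine to taurine synthesis, had a meal-by-water difference of -0.82 ± 0.17, 1 of 2 negative calls among 10 genes of sulfur amino acids and taurine. The pericentral transcription factor gene Tbx3 had 2.04 ± 0.41, in a list of 15 pericentral genes with 1 positive and 2 negative calls and a median of -0.08. Leaving out 1 library gave 1 to 3 calls in the sulfur list, 1 to 5 in the pericentral list, 0 to 3 in the cell cycle list and 0 to 5 in the growth hormone list. In the cell cycle list of 19 genes, the G1 cyclin Ccnd1 had 1.82 ± 0.43 and the replication clamp Pcna had -0.94 ± 0.24. Among 19 genes of growth hormone and STAT5 signalling, Keg1 had -1.71 ± 0.40, a negative difference beside the positive one of Elovl3. Of the 37 ribosomal protein genes, 22 were lower after fast food than after chow in antibiotic water, against 774 of all 13180 genes. None was called in control water, where only 0.577% of all genes were. For the difference itself the 37 genes gave only 1 call, and DESeq2 called 8. An unadjusted p under 0.05 belonged to 19 of the 37, against 2785 of all 13180 genes.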
